A study of Mus musculus with 9 samples.

Results

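Regions of open chromatin that were called in every library of 2 mouse embryonic stem cell lines and in no library of the line carrying TetR alone were described here. Peak lists of all 9 ATAC-seq libraries were joined wherever peaks shared at least 1 bp, which gave 116362 union regions, and a region was kept when 0 of 3 TetR libraries had called it and each of the 3 TetR-MYBTA and 3 WT libraries had. This left 297 regions, or 0.255% of all union regions and 1.05% of the 28374 regions called in each of the other 6 libraries, named six-library regions here. The regions were chosen by the presence and absence of called peaks, so that pattern is a description and is not tested.

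All 3 lines are E14 cells, a mouse embryonic stem cell line, in a variant that the labels name TOT2N. The WT cells are labelled wild type with no construct named, the TetR cells hold a stably integrated TetR construct, and the TetR-MYBTA cells (also spelled TetR-MybTA) a TetR-MYBTA construct integrated in the same way. The promoter of either construct, whether a line is 1 clone, and any treatment or time are not given in the sources used here. Each line is represented by 3 libraries, and nothing in the labels says whether these were separate cultures, so the spread between libraries may be technical. Libraries held 16.4M to 23.0M tags and the lists 45136 to 70230 peaks. The share of tags in peaks was 9.30 to 9.78% in TetR, 5.48 to 7.57% in TetR-MYBTA and 7.79 to 8.09% in WT. A peak needed 12 tags in TetR-MYBTA replicate 3 and WT replicates 2 and 3, and 11 in the rest. The share of tags in peaks goes with the line, so its part in the calls cannot be told apart from that of the line. The TetR lists held 70230, 65957 and 58762 peaks, the TetR-MYBTA lists 59675, 56917 and 45136, and the WT lists 56612, 63098 and 59575. Of 8 stem cell markers, Sox2, Klf4, Tfcp2l1 and Dppa5a had a gene-end peak in all 9 libraries, Nanog in 4, and Pou5f1, Esrrb and Zfp42 in 0. Of the fibroblast genes, Col1a2 had one in 8, Col1a1 and Thy1 in 7, Twist2 in 1 and Postn in 0. The neural genes Neurog2, Sox1 and Pax6 had one in 8, 6 and 6, and the endoderm genes Foxa2, Sox17 and Gata4 in 6, 0 and 0. No fibroblast, neural or endoderm marker had one in all 9. Each of these lists still held genes with such peaks, so gene-end peaks alone separate cell types incompletely here.

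ATAC-seq reads open chromatin through the Tn5 transposase, which cuts where DNA is not wrapped in nucleosomes. Open sites at gene starts are mostly promoters, often rich in CpG and open in many cell types. Open sites away from genes include enhancers, insulators and opened repeats, and vary more between cells. TetR is the bacterial tetracycline repressor, a DNA-binding protein that recognises the tet operator, and MYB is a transcription factor best known from the progenitors of blood cells.

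The members with the plainest gene identity were those lying on an annotated transcription start. RefSeq promoter windows, which span 250 bases before to 50 after a start on GRCm38.p6 (the coordinates of mm10), were overlapped by 12 of the 297 members (4.04%), against 6579 of the 28374 six-library regions (23.2%). Of the 12 windows 8 belong to protein-coding genes and 4 to long noncoding RNA genes. The 5 whose member stood highest in the peak lists are printed because they show the sequence at and beside these starts; each runs 5′ to 3′ on the strand of its gene, and capitals mark the bases inside the member region.
Uty: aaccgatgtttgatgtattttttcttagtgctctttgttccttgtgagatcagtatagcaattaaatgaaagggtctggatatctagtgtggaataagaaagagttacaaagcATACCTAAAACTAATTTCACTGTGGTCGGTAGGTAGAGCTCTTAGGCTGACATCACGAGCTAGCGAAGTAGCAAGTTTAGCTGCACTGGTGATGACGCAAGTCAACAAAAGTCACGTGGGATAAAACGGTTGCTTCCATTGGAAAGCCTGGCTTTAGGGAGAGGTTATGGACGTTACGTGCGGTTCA
Zfp951: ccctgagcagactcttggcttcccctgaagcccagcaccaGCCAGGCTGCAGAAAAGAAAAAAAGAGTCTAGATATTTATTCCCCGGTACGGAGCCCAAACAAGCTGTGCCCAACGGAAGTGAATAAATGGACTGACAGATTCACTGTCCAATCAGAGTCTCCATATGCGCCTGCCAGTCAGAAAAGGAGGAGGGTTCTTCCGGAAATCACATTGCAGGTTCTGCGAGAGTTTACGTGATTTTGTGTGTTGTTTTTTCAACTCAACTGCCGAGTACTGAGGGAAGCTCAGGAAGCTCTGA
Gm32885: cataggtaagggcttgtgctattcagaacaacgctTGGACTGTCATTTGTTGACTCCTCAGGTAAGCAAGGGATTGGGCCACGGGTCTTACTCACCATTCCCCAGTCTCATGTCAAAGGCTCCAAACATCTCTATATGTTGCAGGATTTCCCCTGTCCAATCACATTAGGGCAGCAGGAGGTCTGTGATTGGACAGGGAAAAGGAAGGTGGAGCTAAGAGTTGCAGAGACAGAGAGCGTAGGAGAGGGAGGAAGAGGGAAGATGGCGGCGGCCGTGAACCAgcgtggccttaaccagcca
Atp11b: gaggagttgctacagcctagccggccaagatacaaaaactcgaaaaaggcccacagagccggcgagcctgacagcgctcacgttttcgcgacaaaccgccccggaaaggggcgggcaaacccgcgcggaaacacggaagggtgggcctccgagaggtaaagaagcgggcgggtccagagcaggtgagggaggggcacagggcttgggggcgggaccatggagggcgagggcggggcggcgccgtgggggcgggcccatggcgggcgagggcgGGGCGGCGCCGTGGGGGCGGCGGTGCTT
Slc35e4: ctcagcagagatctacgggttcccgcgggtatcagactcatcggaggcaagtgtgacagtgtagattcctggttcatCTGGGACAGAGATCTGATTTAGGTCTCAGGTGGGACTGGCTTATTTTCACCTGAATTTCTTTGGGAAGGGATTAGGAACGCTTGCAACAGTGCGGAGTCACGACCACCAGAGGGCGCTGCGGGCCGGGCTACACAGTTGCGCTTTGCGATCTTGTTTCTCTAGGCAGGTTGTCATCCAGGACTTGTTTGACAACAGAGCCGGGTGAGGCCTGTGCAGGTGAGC

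Uty, the Y-linked relative of the histone demethylase gene Utx, had its start site inside a member at chrY:1245664-1245896 (window chrY:1245710-1246009, minus strand). A place in a list is the row of a region's peak as a percentile, 100 being the first row. Lists differ in length, so the order of the lines at a single region is given as a description. Of all six-library regions, ranked among themselves, 20.1% had all 3 TetR-MYBTA places above all 3 WT places and 21.5% the reverse. The order at a single region uses places in the full lists instead, so these shares are only a rough background to it. Uty stood at places 81.7, 90.9 and 83.5 in the TetR-MYBTA lists and 70.8, 75.7 and 77.9 in the WT lists, with all TetR-MYBTA values above all WT values, and no TetR peak lay nearer than 223 kb. The TetR libraries still had 8, 7 and 5 peaks on chromosome Y, against 9, 8 and 7 in TetR-MYBTA and 5, 8 and 8 in WT, so other Y regions were called there.

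Zfp951, a zinc finger protein gene, had its start inside chr5:104859975-104860237 (window chr5:104859978-104860277, minus strand). Its places were 78.2, 85.6 and 63.9 in TetR-MYBTA and 79.0, 76.6 and 78.2 in WT, and the 2 lines overlapped. The nearest TetR peak lay 46.4 kb away. The noncoding RNA gene Gm32885 (member chr15:97167214-97167459, window chr15:97167195-97167494, minus strand) had places of 69.9, 86.6 and 65.8 in TetR-MYBTA and 74.5, 78.8 and 65.6 in WT. It lay 76.7 kb from the nearest protein-coding gene, Amigo2, which encodes an adhesion protein, and 79.5 kb from any TetR peak.

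The other printed starts were different in that TetR peaks lay close by. Atp11b, a phospholipid flippase gene, was touched over 28 bases by the member chr3:35754085-35754330 (window chr3:35753813-35754112, plus strand), which begins just past the start. Its places were 68.6, 63.3 and 48.7 in TetR-MYBTA and 74.3, 82.2 and 76.3 in WT, all WT above all TetR-MYBTA. A region called in all 3 TetR libraries and no other lay 38 bp away. Slc35e4, a solute carrier gene (member chr11:3914586-3914837, window chr11:3914615-3914914, minus strand), had places of 59.2, 64 and 52.1 in TetR-MYBTA and 64.8, 68.5 and 64 in WT, and a region 520 bp away was called in all 9 libraries.

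The windows under the members held less CpG than those under other open regions. The 12 windows had a median GC content of 52.3% and 9 CpG, ranging from 2 CpG in Gm26579 to 33 in Atp11b, whereas the 6578 windows under six-library regions had medians of 62% and 22, and all 32851 RefSeq windows 52.7% and 7. At least 10 CpG were found in 6 of 12 windows (50%), in 88.8% of windows under six-library regions and in 43.5% of all windows. The MYB core AACNG, searched on both strands, matched in 10 of 12 windows (83.3%), against 77.1% of windows under six-library regions and 80.3% of all RefSeq windows. The GC box GGGCGG matched in 4 (33.3%, against 69.7% and 35.7%) and the ETS core GGAAG in 11 (91.7%, against 75.7% and 71.4%). The E-box CACGTG, which is its own reverse complement, matched in 2 (16.7%, against 11.1% and 7.15%) and the SOX core AACAAT in 0 (against 5.64% and 10.7%). These motifs can overlap one another, and with 12 windows the shares are descriptions of letters only. The windows were not matched on place in the lists, which was lower for members than for six-library regions. Each count covers the whole window and not only the bases inside the member.

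Gene ends in the wider sense, within 1 kb of either end of a protein-coding gene, held 18 of the 297 members (6.06%). Inside protein-coding genes lay 79 (26.6%), and between genes 200 (67.3%). Among six-library regions the shares were 28.4%, 30.9% and 40.7%. The shift towards sites between genes went with how many TetR libraries had a peak: the share between genes was 39.3% where all 3 TetR libraries had one, 53.2% where 2 did, 58.8% where 1 did and 67.3% where none did, and gene ends went from 29.7% through 16% and 11.9% to 6.06%. Without TetR replicate 3 the share at gene ends was 9.95%. The shares were also taken by place, since place differs between these sets. At a mean place of at most 50, members lay between genes in 70.9% (158 of 223) and six-library regions with a TetR peak in 50.3% (3102 of 6162). Above 50, the shares were 56.8% (42 of 74) and 37.7% (8251 of 21915).

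The comparison sets made by the same rule for the other lines did not share one composition. Regions missing only in TetR-MYBTA numbered 1349 (1.16% of union regions, 4% of those called in all 6 other libraries), and those missing only in WT 176 (0.151% and 0.613%). The former lay between genes in 40.8%, inside genes in 48.7% and at gene ends in 10.5%, and the latter in 55.1%, 35.8% and 9.09%. Their mean places were much alike, with medians of 38.7 in the TetR set, 38.1 in the TetR-MYBTA set and 33.8 in the WT set. These 3 sets share libraries, and the differences between them were not tested.

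The 18 gene-end members covered genes of varied function. Besides Uty, Zfp951, Atp11b and Slc35e4, start windows were overlapped at Spint2, Trpv3 and Noxa1. Spint2, an inhibitor of serine proteases (chr7:29281885-29282201), had places of 54.7, 47.7 and 24.9 in TetR-MYBTA and 80.5, 68.6 and 75.1 in WT, with all WT values above, and a TetR peak 432 bp away. Trpv3, a heat-activated cation channel gene (chr11:73267285-73267569), showed the opposite order, with 48.7, 42.7 and 47.7 in TetR-MYBTA and 5.18, 15.6 and 30.7 in WT. Noxa1, an NADPH oxidase activator gene (chr2:25095095-25095414), stood low in all 6 lists, from 17.7 to 38.0, with the nearest TetR peak 40.6 kb away.

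The gene-end members without a TetR peak for some distance included Gm20385 (chr5:104662160-104662393, nearest TetR peak 52.6 kb, mean place 51.0), Abcc6, an ATP-binding cassette transporter gene (chr7:45973224-45973568, 48.9 kb, mean place 47.1), Fam13a (chr6:58932555-58932821, 25.3 kb, mean place 36.7) and Rgs5, a regulator of G protein signalling (chr1:169654408-169654811, 15.9 kb, mean place 34.6). Clta, the clathrin light chain gene (chr4:44003655-44003874), and Sowahb (chr5:93040106-93040377) stood higher, at mean places of 56.8 and 62.6, with TetR peaks 8.62 and 4.74 kb away. Further gene ends were those of Fam83g, Serinc2, Cacna2d1 (a calcium channel subunit gene) and Lrfn2 (a synaptic adhesion gene), with mean places from 28.4 to 53.3. Once all lists were taken to equal length, the gene-end members at Trpv3, Noxa1, Fam13a, Rgs5, Fam83g and Serinc2 no longer qualified.

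Members stood low in the lists of the lines that had them. Their median place was 50.9, 46.2 and 37.1 in TetR-MYBTA replicates 1 to 3 and 35.2, 40 and 35.6 in WT replicates 1 to 3, while six-library regions had medians from 64.8 to 74.6. In each of the 6 lists the median member lay below the lower quartile of the six-library regions. The share of six-library regions that lacked every TetR peak was 6.29% (9 of 143) at mean places up to 20 and then fell, from 7.72% (65 of 842, 95% exact interval 6.01 to 9.73%) at mean places of 20 to 30, to 1.08% (43 of 3976, 0.784 to 1.45%) at 50 to 60 and 0.0856% (4 of 4671, 0.0233 to 0.219%) at 80 to 90. Above 90, 0 of 4648 lacked them, which allows up to 0.0793%. The intervals cover counting error only, since neighbouring regions are not independent.

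**Figure D1:**
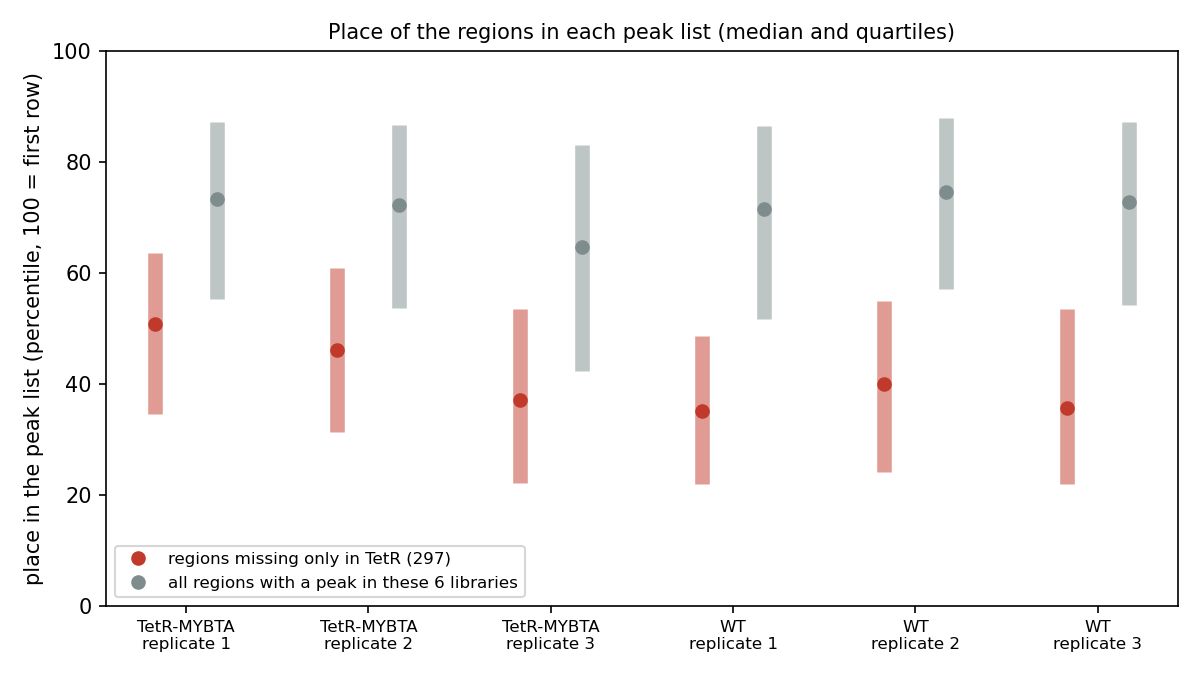
Place in the peak list (percentile, 100 being the first row) by library, as the median (point) and the range between quartiles (bar), for the 297 regions missing only in TetR (red) and all 28374 regions with a peak in the same 6 libraries (grey). The red medians run from 35.2 to 50.9 and the grey ones from 64.8 to 74.6.

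**Figure D2:**
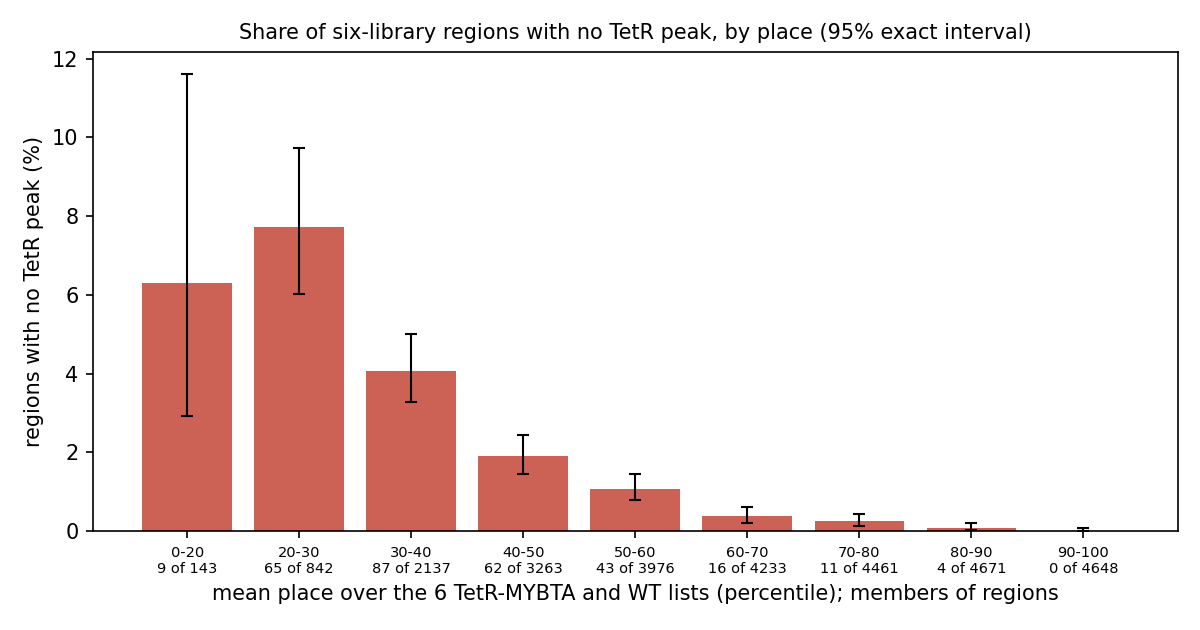
Share of six-library regions without a peak in any TetR library (vertical axis, %) by mean place over the 6 TetR-MYBTA and WT lists (horizontal axis, percentile), with 95% exact intervals and the counts under each bar. The share is highest at places of 20 to 30 (7.72%), with an interval overlapping that of places up to 20, and is 0 of 4648 regions above 90.

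At the limit of the rule the values changed gradually. The regions next to the members on one side, with a peak in all 6 other libraries and in 1 TetR library, numbered 565 and had a median mean place of 43.2, against 38.7 for the members. Those on the other side, with no TetR peak and a peak in 5 of the 6 other libraries, numbered 567 with a median of 31.0. The library without a peak was TetR-MYBTA replicate 3, the shortest list, in 180 of these 567 and TetR-MYBTA replicate 1 in 43. Leaving out a library removes a condition of the rule, so the number of members can hardly fall. It was 556 without TetR replicate 1, 480 without TetR replicate 2 and 479 without TetR-MYBTA replicate 3, compared with 297 in all.

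Few members stood high in the lists. Of the 297, 31 had a mean place above 60, 0.172% of the 18013 six-library regions there, and 19 were in the upper 50% of all 6 lists. Of the 31, 24 had no TetR peak within 1 kb. The region with the highest mean place, 85.0, lay at chr7:7188127-7188347, 4.68 kb from the zinc finger gene Zfp418; as shown further on, TetR libraries had a peak beside it. Next came a region at chr9:17556265-17556500, far from protein-coding genes, the nearest being Chordc1, a gene of an HSP90 co-chaperone. Its places were 83.8, 88.7 and 93.1 in TetR-MYBTA and 69.5, 79.7 and 73.8 in WT, with all TetR-MYBTA values above, and a TetR peak lay 1.18 kb away.

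The region inside 4930558K02Rik (chr1:161958275-161958513) had places of 91.7, 91.6 and 91.3 in TetR-MYBTA and 76.3, 64.8 and 69.3 in WT, so that all TetR-MYBTA values lay above. A region 2.58 kb from 2310009B15Rik (chr1:138859250-138859610) was similar, at 94.5, 91.6 and 88.8 against 47.8, 72.2 and 53.6. A region inside Slc26a9, an anion transporter gene (chr1:131745477-131745750), stood at 80.6, 90 and 80.5 against 54.4, 63.0 and 74.1, and no TetR peak lay within 26.1 kb. These 3 lie on chromosome 1 beyond 88 Mb, described further on.

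Other leading members lay on other chromosomes. A region 7.43 kb from Smoc1, which encodes a secreted matrix protein (chr12:81019258-81019501), had places of 71.1, 79.5 and 69.5 in TetR-MYBTA and 81.8, 90.4 and 80.3 in WT, with all WT values above. A region 3.58 kb from Gm52217 (chr15:52000036-52000264) stood at 78.5, 84.1 and 71.4 against 69.2, 67.5 and 75.4, and one near the sulfotransferase gene Sult2a5 (chr7:13697846-13698087) at 79.3, 77.9 and 70.9 against 73.5, 65.3 and 77.7, with both overlapping. The nearest TetR peaks to these 3 lay 5.61, 2.38 and 8.42 kb away. The region inside Mapk4, an atypical MAP kinase gene (chr18:73963337-73963621), had places of 80.7, 82.7 and 83.0 against 75.1, 80 and 67.2, with all TetR-MYBTA values above, and a TetR peak 188 bp away.

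Some missing peaks had a TetR peak right beside them. A TetR peak lay within 1 kb of 34 of the 297 members (11.4%), within 5 kb of 112 (37.7%) and within 10 kb of 168 (56.6%), and the median gap was 7.98 kb. Such gaps were not particular to this set. Of the 1349 regions missing only in TetR-MYBTA, 137 had a peak of that line within 1 kb, with a median gap of 10 kb. Of the 176 missing only in WT, 26 had a WT peak within 1 kb, with a median gap of 8.24 kb. For 5 of the 297 members the neighbour within 200 bp was called in all 3 TetR libraries and in no other library. The peak was thus listed at one position in TetR and at another in the other 2 lines. These 5 members were near Zfp418, Aebp2 and Atp11b and inside Cdh18 and Lrfn2. The peak caller keeps at least 386 to 416 bp between peaks of a library, so both positions of such a pair could not have been listed together.

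At Zfp418 the TetR peaks were as high in their lists as the member was in the others. The member had places of 88.2, 87.9 and 87.4 in TetR-MYBTA and 84.4, 86.4 and 75.7 in WT. The neighbour at chr7:7188383-7188584, 36 bp away with its centre displaced by 250 bp, had places of 89.6, 89.4 and 85.9 in TetR. Near Aebp2, a gene of a Polycomb repressive complex subunit (chr6:140617804-140618051), the member had a mean place of 72.0 and the TetR neighbour 117 bp away 76.3, 74.4 and 70.7. At Atp11b the TetR neighbour had places of 71.5, 76.9 and 64.1. At Lrfn2 (chr17:48931936-48932144) the neighbour was higher, at 77.0, 84.5 and 80.6 against a mean of 53.3 for the member. Inside the cadherin gene Cdh18 (chr15:23104741-23104993) it was lower, at 27.9, 12.2 and 43.9 against 67.6. Centres of these 5 pairs lay 250 to 326 bp apart. With peaks up to 200 bp apart merged, none of these 5 members qualified. Similar pairs made up 1.68% of the regions missing only in TetR, 0.519% (7) of those missing only in TetR-MYBTA and 1.14% (2) of those missing only in WT.

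Among the other neighbours within 1 kb, 5 were regions called in all 9 libraries, and in 11 the neighbour was called in 1 of the TetR libraries. Leaving out all members with a TetR peak within 1 kb, a setting added after the data were seen, left 263 regions, of which 69.2% lay between genes and 4.94% at gene ends. The members farthest from any TetR peak after Uty were regions near Aoah (chr13:20743496-20743973, 115 kb), Tmem38b (chr4:54373620-54373954, 86.7 kb), Iqcm (chr8:76279253-76279569, 80.6 kb) and Gm32885 (79.5 kb). Those near Aoah, Tmem38b and Iqcm had low mean places of 25.1, 22.6 and 34.9, and those near Aoah and Tmem38b no longer qualified with all lists taken to equal length.

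**Figure D3:**
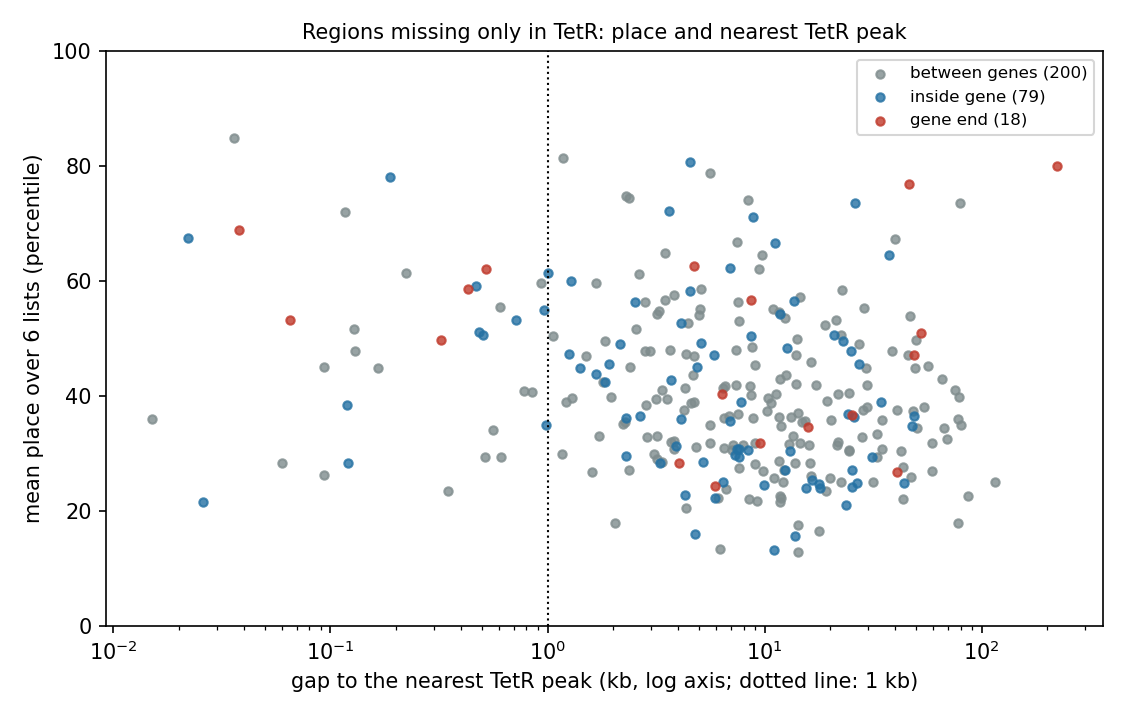
Mean place over the 6 TetR-MYBTA and WT lists (vertical axis, percentile) against the gap to the nearest TetR peak (horizontal axis, kb, log scale; dotted line at 1 kb) for each of the 297 regions, coloured by position relative to protein-coding genes. The 34 regions left of the line include the highest, at 85.0, and the 5 pairs of displaced peaks, and the rightmost point is Uty, at 223 kb.

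The surroundings of the members were not empty in TetR. Within 50 kb of a member, leaving the members out, TetR libraries had 3.98, 3.75 and 3.49 peaks, TetR-MYBTA libraries 3.68, 3.66 and 2.92, and WT libraries 3.53, 3.80 and 3.62. Set against the same count around all six-library regions, this was 90.3 ± 1.20% in TetR, 101 ± 2.5% in TetR-MYBTA and 96.5 ± 0.743% in WT (SD, n = 3 each), and the 3 TetR values, from 89.1 to 91.5%, lay below all 6 others. This is the contrast that chose the members, and leaving the members out removes only regions without TetR peaks, so it carries no test.

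Members were spread over all chromosomes, mostly singly. The share of six-library regions that were members was 1.74% on chromosome 1 (43 of 2473, 95% exact interval 1.26 to 2.34%), 1.65% on 15 (17 of 1033, 0.962 to 2.62%) and 1.64% on 11 (32 of 1952, 1.12 to 2.31%), against 1.05% over all. It was lowest on 17 (3 of 1175, 0.255%) and 16 (3 of 1011, 0.297%). Chromosome X, with 7 of 829 (0.844%), lay near the overall value, although TetR had 2235 to 2570 peaks there and the other lines 1258 to 1732.

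Chromosomes 1 and 11 are also those on which the lists of TetR-MYBTA replicates 1 and 2 were long. On chromosome 1 TetR-MYBTA had 6045, 5831 and 4541 peaks against 5304, 4972 and 4399 in TetR and 4340, 4795 and 4540 in WT. On chromosome 11 it had 4335, 4097 and 3412 against 3893, 3650 and 3251 in TetR and 3382, 3673 and 3524 in WT. TetR-MYBTA replicate 3 lay within the range of the other lines on both. On both chromosomes the share of members was taken in and outside stretches bounded at 88 and 44 Mb, boundaries set earlier from these data. From 88 Mb of chromosome 1 onward 35 of 1630 six-library regions were members (2.15%), against 8 of 843 (0.949%) before it. Below 44 Mb of chromosome 11 they were 15 of 626 (2.40%), against 17 of 1326 (1.28%) beyond. Outside both stretches 247 of 26118 were members (0.946%, interval 0.832 to 1.07%), against 50 of 2256 (2.22%, 1.65 to 2.91%) inside. The part that the number of TetR-MYBTA peaks has in this was not tested.

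**Figure D4:**
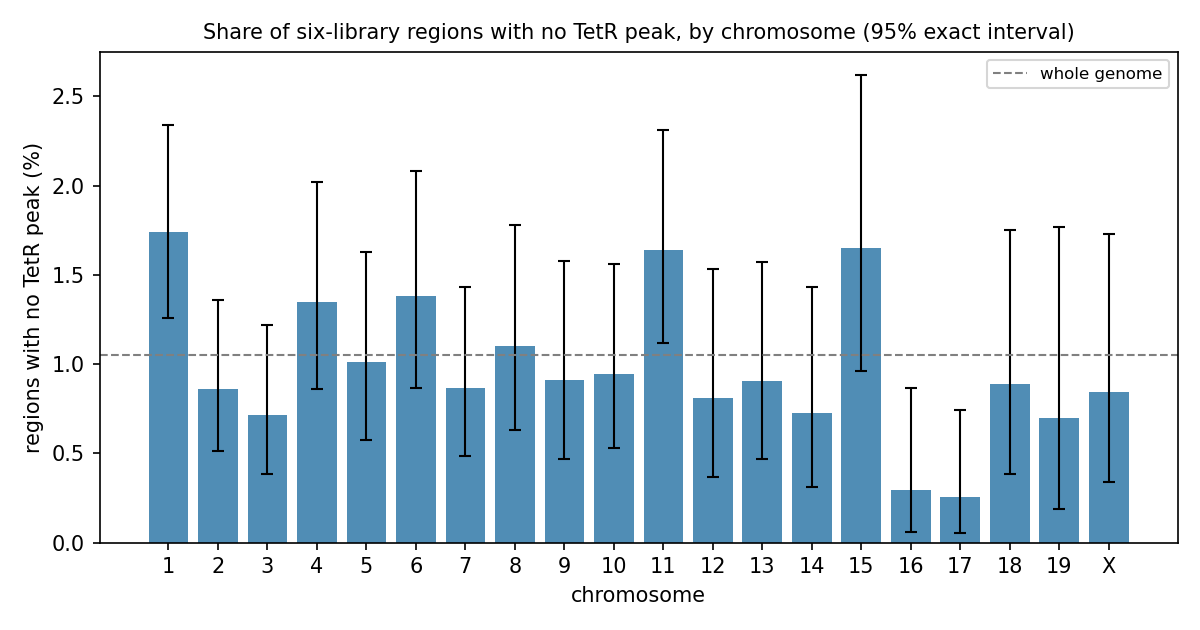
Share of six-library regions without any TetR peak (vertical axis, %) on each autosome and X (horizontal axis), with 95% exact intervals, and the overall share of 1.05% as a dashed line. Chromosomes 1, 15 and 11 have the highest shares and 16 and 17 the lowest; Y, with 1 of 3 regions, is not drawn.

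Of the 1-Mb windows with members, 246 held 1, 19 held 2, 3 held 3 and 1 held 4, and 22 members (7.41%) had another within 100 kb. The window with 4 was chromosome 11 from 22000001 to 23000000, with members inside Ehbp1, which encodes a protein of endocytic traffic (mean place 51.2), 54.1 kb from Tmem17, which encodes a ciliary membrane protein (53.1), and 2 beside the glycosyltransferase gene B3gnt2 (26.1 and 41.1), among 25 six-library regions. Windows with 3 lay on chromosome 1 from 178000001 (2 members near Cox20 and 1 inside Kif26b), chromosome 6 from 140000001 (near Capza3, Plekha5 and Aebp2) and chromosome 5 from 104000001. Some of these regions no longer qualified with all lists taken to equal length. They were those inside Kif26b, near Plekha5, near Cox20 at chr1:178291651-178291977, and beside B3gnt2 at mean place 26.1. Chosen after their values were seen, 4 members within 1 Mb on chromosome 15 were also named: inside Gm38469 (chr15:96210818-96211042, mean place 62.3), near the amino acid transporter gene Slc38a2 (chr15:96788079-96788365, 42.9), inside the related Slc38a4 (chr15:97002801-97003084, 47.8) and at Gm32885 (73.6). Regions missing only in TetR-MYBTA had another of their kind within 100 kb in 22.1% and those missing only in WT in 1.14%, but these shares rise with the number of regions (1349, 297 and 176).

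The longest run of neighbouring six-library regions that all lacked TetR peaks had 3 members over 198 kb of chromosome 5, at Gm20385, at chr5:104722683-104722942 and at Zfp951. All 3 TetR libraries had a peak in the 1 region between them that was called in 7 libraries, 5.59 kb from the middle member, so the stretch was not without TetR peaks. The other 9 runs had 2 members each. In 5 of these (at Slc26a9, Cox20, Dicer1, C1galt1 and on chromosome 18 near Haus1) no TetR peak was listed in between, over 4.16 to 30 kb.

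**Figure D5:**
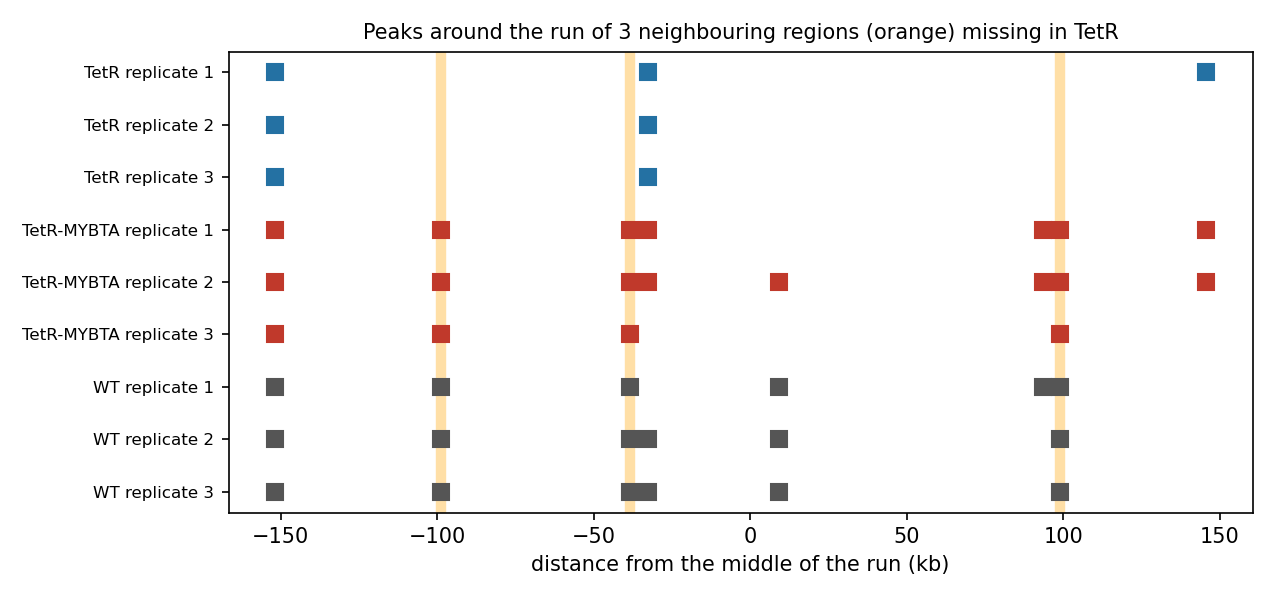
Peaks of the 9 libraries (squares; rows are libraries) around the run of 3 neighbouring members (orange) on chromosome 5, by distance from the middle of the run (kb). TetR squares are absent at the 3 orange positions and present at a region 5.59 kb from the middle member.

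Near the genes of developmental and other lists, members were about as frequent as among all six-library regions. Over 12 lists with 206 genes, 9 of the 731 six-library regions within 50 kb were members (1.23%, genes of 2 lists counted in both), close to the overall 1.05%. No member lay within 50 kb of the genes listed for formative and primed pluripotency, neural, mesoderm and endoderm, blood and MYB, signalling, X inactivation or housekeeping functions. Those lists held 7 to 77 six-library regions each, too few at a share of 1.05% for the absence of members to say much.

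The 9 single regions were as follows. A region 17 kb from Nanog, the homeobox gene of naive pluripotency (chr6:122690128-122690471), had a mean place of 47.8, and 1 TetR library had a peak 130 bp away. A region inside Tead4, a transcription factor gene of trophoblast specification (chr6:128296468-128296770), stood at 76.8, 61.7 and 67.6 in TetR-MYBTA and 79.6, 77.5 and 70.6 in WT, with a TetR peak 3.63 kb away. Of the 278 six-library regions near adhesion genes 4 were members (1.44%), inside Cdh18, the contactin gene Cntn5, Cntnap5a and the alpha-catenin gene Ctnna3, at mean places of 67.6, 24.2, 35.6 and 42.4. The 2-cell-like list held 2 of 9, near Zfp352 and Usp17lc, at mean places of 27.4 and 31.4. A region 45.4 kb from the imprinted gene Peg3 had a mean place of 61.4 and a TetR peak 0.223 kb away. It lay inside the long noncoding RNA gene Zim2 and 16.1 kb from Zim1, and a region 213 bp away was called in all 9 libraries. With all lists taken to equal length, the regions at Zfp352, Usp17lc, Cntn5, Cntnap5a and Ctnna3 no longer qualified.

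The rule asks for a peak in all 6 lists, but it can still bear on the difference between TetR-MYBTA and WT. The lists differ in length, from 45136 peaks in TetR-MYBTA replicate 3 to 63098 in WT replicate 2, so the condition is not equally strict. Members also stood low, with a median mean place of 38.7 against 69.1 for six-library regions, and were not matched on place. The part that this has in the difference was not tested. Ranked among six-library regions only, so that every list ranks the same regions, the median member stood at 19.6 ± 1.66 in TetR-MYBTA and 10.6 ± 1.02 in WT (SD, n = 3 each), with all 3 TetR-MYBTA libraries above all 3 WT libraries. The two-sided exact permutation p of 0.1 is the smallest that 3 against 3 can give, and it was 0.200 after adjustment over the 2 measures of place. Among all peaks of the lists the medians were 44.7 ± 7 and 36.9 ± 2.67, the libraries overlapped, and the exact permutation p was 0.200 (adjusted 0.200, n = 3 each). Neither difference passed. The latter difference, WT minus TetR-MYBTA, was -7.79, and it was -3.20 without TetR-MYBTA replicate 1.

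Region by region, 210 of the 297 members (70.7%) had a higher mean place among six-library regions in TetR-MYBTA than in WT. Of all six-library regions, which were not matched to the members on place, 48.3% did. In 89 members (30%) all 3 TetR-MYBTA places lay above all 3 WT places, against 20.1% of all six-library regions, and in 20 (6.73%) the reverse held, against 21.5%. The order was the same outside the stretches of chromosomes 1 and 11, where the 247 members had median places of 19 ± 1.46 in TetR-MYBTA and 10.6 ± 0.720 in WT, and inside them, where the 50 members had 21.1 ± 2.47 and 11 ± 2.49 (SD, n = 3 each).

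Within the members the peaks of the 6 libraries lay close together, which follows largely from merging overlapping peaks of fixed size. The centres of a member's peaks spanned a median of 68 bp, with a range from 2.5 to 525 bp, against a median of 57 bp over six-library regions. Members had a median width of 271 bp and six-library regions 268 bp, widths that follow mostly from the fixed peak size of each list. Of the 200 members between protein-coding genes, 35 lay inside a long noncoding RNA gene, 65 were over 100 kb and 21 over 500 kb from the nearest protein-coding gene. These counts are given for members only and mark no trait of the set. The median distance to a protein-coding gene was 48.3 kb for members between genes. It was 40.8 kb for six-library regions and 44.6 kb for all union regions between genes. For regions missing only in TetR-MYBTA it was 33.7 kb, and for those missing only in WT 86.2 kb.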

How the data were processed

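ATAC-seq peak lists of 9 libraries, 3 per line, were used, grouped by their titles. Tools listed per the submitters' processing notes are HOMER 4.11, deepTools 3.5.5, Picard, Bowtie2, Trim Galore 0.6.10 and FastQC, with build mm10. HOMER called each library alone, per the file headers, at a false discovery rate of 0.001, with a 4-fold excess over 10 kb and a threshold of 11 or 12 tags; no Tn5 shift or blacklist step is given in the sources used here. A deposited score column is 1 in every row and ranks nothing, so row order gave each peak's place; that row order follows peak height is not stated. Per-peak tag counts were not used, so absence means below the calling threshold. The authors' starts and ends are written counting from 1.

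Peaks sharing 1 bp were merged. Genes (21900 protein-coding) and promoter sequences came from RefSeq for GRCm38.p6, and distances to genes from region midpoints. All 206 listed genes matched. Tests were two-sided exact permutation tests with Benjamini-Hochberg adjustment. The members, gene lists and stretches were chosen with earlier results of these data known. Named were the 12 highest members, those at gene ends (1 is not reported here), those in the fullest windows (windows with 2 members were tied and are not all named), the 5 farthest from TetR peaks, those near listed genes and the longest run. Alternatives were equal list lengths, the upper 50% of lists, 50% cover, merging at 200 bp, autosomes, 5 of 6 libraries, other distances, omission of each library, and a replicate block. The merging and counting were tested on simulated data. Scripts ran in Python 3.11.15 with scipy 1.17.1, pandas 2.3.3, matplotlib 3.10.9 and numpy 2.4.6.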

Additional observations from a re-analysis of the deposited data

How the results depend on the processing

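Leaving out 1 library, and with it a condition of the rule, gave 339 to 556 regions missing only in TetR (1.16 to 1.96% of six-library regions). Between genes lay 62.1 to 67.2% of them and at gene ends 5.54 to 9.95%. No TetR peak lay within 1 kb of 82.5 to 87.7%, and 6.72 to 10.2% had another within 100 kb. Lists of equal length gave 540 regions (2.25% of six-library regions, 93.5% with no TetR peak within 1 kb), of which 122 of the 297 remained, and the upper 50% of each list gave 255 (1.68%), of which 19 of the 297 remained; which regions qualify thus depends on how far down the lists are read. Asking for 5 of 6 libraries gave 864. Merging at 200 bp gave 301 regions, 94.4% with no TetR peak within 1 kb, and 280 of the 297 remained. Of the named members, those at Zfp418, Mapk4, Aebp2, Atp11b, Spint2, Cdh18, Lrfn2 and Nanog no longer qualified in that setting. Omitting members with a TetR peak within 1 kb left 0.927% of six-library regions. Wider distances gave 10.4% at gene ends (2.5 kb), 62.3% and 43.4% without a TetR peak (5 and 10 kb) and 17.5% with another member within 500 kb. The share between genes lay from 62.1 to 69.2% in the settings for which it was computed, which leave out that of 5 of 6 libraries. The median place, WT minus TetR-MYBTA, kept its sign in all settings run, from -11.1 (without WT replicate 2) to -3.20 (without TetR-MYBTA replicate 1) when 1 library was left out. With the replicate number as a block it was -7.79 (exact sign-flip p = 0.250, the smallest 3 pairs allow). Deviations of same-numbered libraries were nearly uncorrelated over the 297 regions (-0.0589 to 0.00452). The labels do not say whether same-numbered libraries were handled together, and these correlations, taken over chosen regions, cannot decide it.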
